A study of Mus musculus with 10 samples.

Results

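The genes described are 10 that fat cells use to store lipid, to take it up and to signal: Adipoq, Cfd, Retn, Plin1, Cidec, Fabp4, Lpl, Cd36, Pparg and Cebpa. They were chosen by name, with earlier results of these data known, and each gene's value is the sum of its transcripts. They are 10 of 35705 genes with a value and 10 of 13841 tested. All 10 averaged at least 1 TPM, the level required for testing. TPM is a length-corrected share of a library, so levels can be compared between genes within a library. RNA was sequenced from caps of cartilage cut from the medial side of the knee, 1 mouse a library, from 5 wild-type controls and 5 Mir324-null mice, which lack the microRNA gene Mir324. The mice had no treatment, per the labels, which give no age, sex, strain, litter or sequencing batch and do not say how the null allele was made. The study's title concerns bone-forming and bone-resorbing cells. The microRNA was not analysed here, and the labels of genotype were not checked against it.

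A white fat cell keeps its fat as triglyceride in one large droplet, whose coat proteins govern when fat is released. Pparg and Cebpa are the pair of transcription factors that drive and maintain the fat cell programme, and the other genes on the list are among those the programme turns on. In bone, fat cells lie in the marrow among blood-forming cells and share a stromal precursor with osteoblasts, and those precursors are known to express Adipoq, Lpl and Cebpa themselves. Endothelial cells and macrophages also express Cd36, Fabp4, Lpl or Pparg, so Plin1, Cidec and Cfd are the stricter fat cell markers of the list.

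The samples are labelled as chondrocytes of articular cartilage, and they held RNA of bone and marrow too. Haemoglobin and other erythroid markers summed to 112354 to 262867 TPM per library, and chondrocyte markers to 1592 to 6011 TPM. All 10 fat cell genes were present in every library, and they summed to 434 to 687 TPM (wild-type) and 345 to 521 TPM (null), or 0.0345% to 0.0687% of a library. Ucp1, the heat-producing protein of brown fat, was listed at 0 in 9 of the 10 libraries and at 0.101 TPM in wild-type replicate 1. The deposited values do not place the fat cells, and marrow fat and other fat of the knee cannot be told apart. Wild-type replicate 1 stood apart from the other libraries, with the lowest quality weight in limma (0.413 against 0.751 to 1.49), the highest chondrocyte marker sum and the lowest erythroid sum, so the results it moves are given with and without it. Over the other wild-type mice the chondrocyte sum was 1850 to 4296 TPM and the erythroid sum 118066 to 198166 TPM. In a bulk sample, fewer fat cells and less RNA per fat cell cannot be told apart.

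In this tissue the genes of the fat cell's stored droplet and its secreted products averaged lower in Mir324-null mice, while the 2 transcription factors averaged near the wild-type level. Cidec averaged 43.4% of the wild-type level, Plin1 54.3%, Cfd 57.9%, Retn 59.4% and Adipoq 78.1%, against 97.1% for Pparg and 98.6% for Cebpa. The uptake genes were mixed, with Fabp4 at 63.1%, Lpl at 76.8% and Cd36 at 109%. None of these differences passed adjustment: with limma and Benjamini-Hochberg adjustment 0 of 13841 genes (0.0%) did, and the smallest adjusted p was 0.277. Before adjustment, 5 of the 10 genes had a p under 0.05, all lower in null mice (Fabp4, Cidec, Plin1, Cfd and Adipoq), and 4 did without wild-type replicate 1, Adipoq being lost. The same held for 11.6% of all genes tested in either direction and for 7.3% in the lower direction. Estimates were below 0 for 9 of the 10 genes, beside 60.0% of all genes, and their median was -0.43 against -0.045 on the log2(TPM + 1) scale. Because the 10 genes were chosen with earlier results of these data known, these shares are a description and cannot test for an excess. The genotypes overlapped for each of the 10, and did not overlap for 1.94% of all genes. The p-values measure the spread among these 10 mice.

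**Figure D1:**
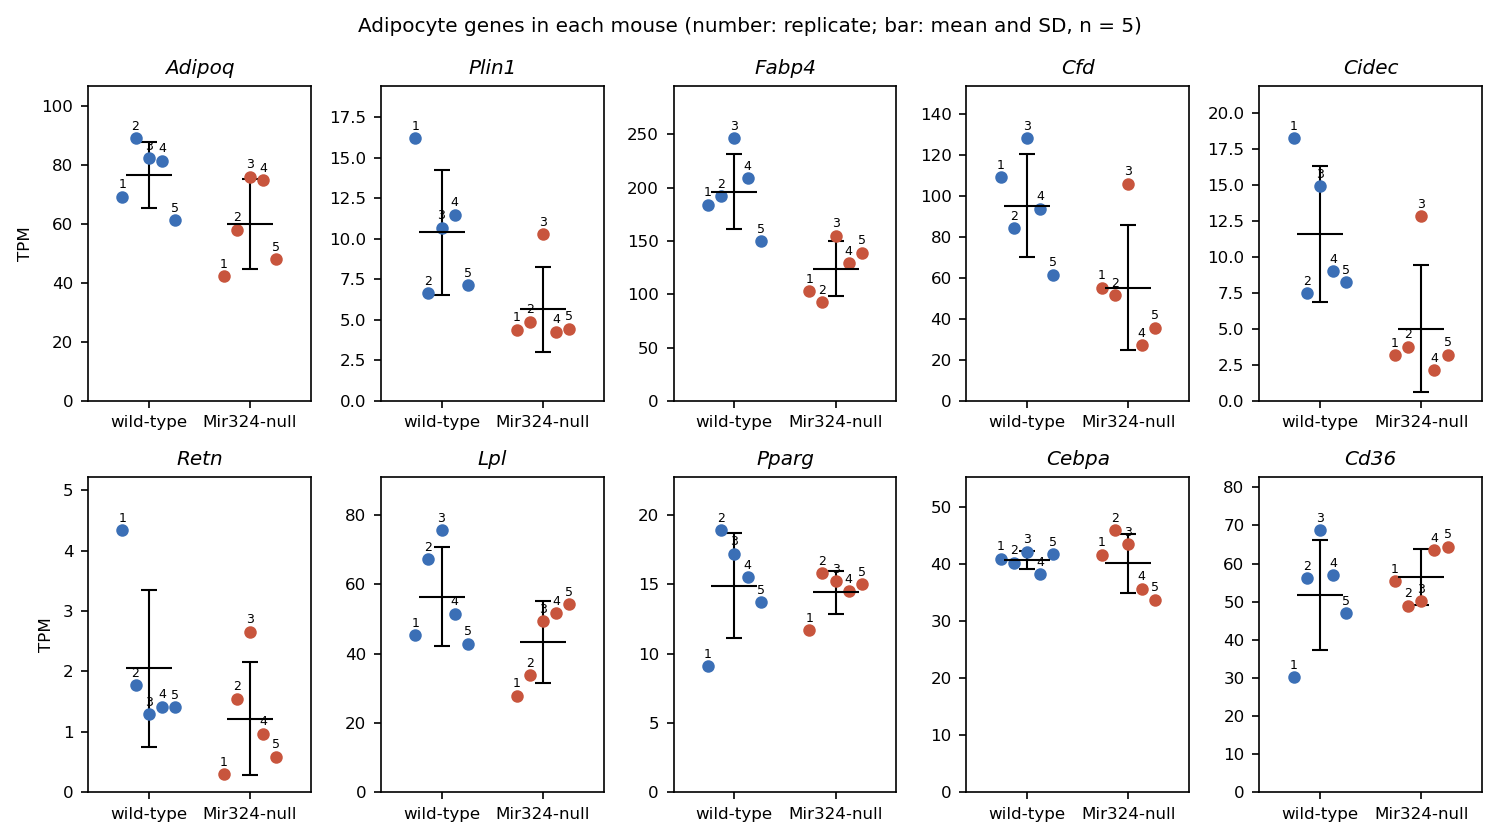
TPM of each of the 10 genes in each mouse, wild-type in blue and Mir324-null in red, with replicate numbers over the points and the mean and SD of 5 mice as bars. Null replicate 3 sits among the wild-type mice for Plin1, Cidec, Cfd and Retn, while Pparg and Cebpa stand at like levels in both genotypes.

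Of the 10 genes, 2 encode proteins of the lipid droplet. Plin1 (perilipin 1, ENSMUSG00000030546, chromosome 7, 79720218 to 79732903, minus strand, GRCm38) encodes the protein that coats the droplet of fat cells and holds lipases off it. Its level in wild-type replicates 1 to 5 was 16.2, 6.67, 10.7, 11.5 and 7.13 TPM. In null replicates 1 to 5 it was 4.40, 4.90, 10.3, 4.27 and 4.45 TPM. Of the 5 null mice, 4 lay below every wild-type mouse and only replicate 3 stood among them. The means were 10.4 ± 3.87 and 5.67 ± 2.62 TPM (SD, n = 5), a log2 difference of -0.78 (SE 0.264, 95% interval -1.36 to -0.21). The limma p was 0.0121 unadjusted and 0.337 adjusted, and the two-sided exact permutation p was 0.0317.

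Cidec (ENSMUSG00000030278, chromosome 6, 113424634 to 113435760, minus strand) encodes a protein that sits where droplets touch and lets small ones fuse into one large one. Wild-type mice had 18.2, 7.48, 14.9, 9.01 and 8.23 TPM, and null mice 3.15, 3.76, 12.8, 2.14 and 3.20 TPM, in the order of the replicates. Again 4 null mice were below every wild-type mouse and replicate 3 was above 3 of them. The means of 11.6 ± 4.72 and 5.01 ± 4.40 TPM (SD, n = 5) gave the lowest estimate of the 10 genes, a log2 difference of -1.21 (SE 0.373, 95% interval -2.02 to -0.39). Its limma p was 0.00726 unadjusted and 0.319 adjusted, with an exact permutation p of 0.0317. Without wild-type replicate 1 the differences were -1.04 for Cidec and -0.62 for Plin1, and without null replicate 3 they were -1.57 and -0.99.

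Among the secreted products, Cfd (adipsin, ENSMUSG00000061780, chromosome 10, 79890853 to 79892655, plus strand) encodes the complement protease factor D, made mainly by fat cells. It stood at 109, 84.4, 128, 93.7 and 61.5 TPM in wild-type and at 55.2, 51.7, 106, 27.3 and 35.7 TPM in null mice. The same 4 null mice, all but replicate 3, were below every wild-type mouse. Means were 95.3 ± 25.1 and 55.2 ± 30.6 TPM (SD, n = 5), a log2 difference of -0.89 (SE 0.313, 95% interval -1.57 to -0.21). The limma p was 0.0152 unadjusted and 0.342 adjusted, and the exact permutation p was 0.0556, so the 2 tests fell on different sides of 0.05.

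Adipoq (adiponectin, ENSMUSG00000022878, chromosome 16, 23146536 to 23158028, plus strand), the hormone fat cells secrete in the greatest amount, differed less. Wild-type mice had 69.3, 89.0, 82.3, 81.5 and 61.2 TPM, and null mice 42.4, 58.1, 76.1, 74.8 and 48.0 TPM. Null replicates 1, 2 and 5 were below every wild-type mouse, and replicates 3 and 4 were inside the wild-type range. The means of 76.7 ± 11.2 and 59.9 ± 15.3 TPM (SD, n = 5) differed by -0.38 on the log2 scale (SE 0.171, 95% interval -0.75 to -0.00). The limma p was 0.0486 unadjusted and 0.427 adjusted, the exact permutation p was 0.0952, and the unadjusted p was at or above 0.05 in 13 of 20 other settings. Without wild-type replicate 1 the difference was -0.41 (limma p 0.05 unadjusted, on the far side of the threshold).

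Retn (resistin, ENSMUSG00000012705, chromosome 8, 3655770 to 3660110, plus strand), a peptide that white fat of mice secretes, was the lowest of the 10 genes in level. It stood at 4.34, 1.77, 1.29, 1.42 and 1.41 TPM in wild-type and at 0.304, 1.55, 2.66, 0.969 and 0.591 TPM in null mice. One wild-type mouse, replicate 1, was far above the others, and 3 null mice were below every wild-type mouse. The log2 difference was -0.47 (SE 0.311, 95% interval -1.15 to 0.21) with a limma p of 0.154 and an adjusted p of 0.613. It was -0.25 without wild-type replicate 1 and -0.68 without null replicate 3 (unadjusted p 0.0385).

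Of the genes that bring fatty acids into the cell, Fabp4 (ENSMUSG00000062515, chromosome 3, 10204088 to 10208576, minus strand) encodes the abundant fatty acid carrier of the fat cell cytoplasm. It had the highest level of the 10 genes, at 184, 192, 246, 209 and 150 TPM in wild-type and 103, 92.7, 155, 129 and 139 TPM in null mice. Of the null mice 4 were below every wild-type mouse, and replicate 3 exceeded only wild-type replicate 5. The means were 196 ± 35.2 and 124 ± 25.9 TPM (SD, n = 5), a log2 difference of -0.67 (SE 0.161, 95% interval -1.02 to -0.31). It had the smallest p of the 10 genes, 0.00146 unadjusted and 0.277 adjusted in limma, with an exact permutation p of 0.0159.

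Lpl (ENSMUSG00000015568, chromosome 8, 68880491 to 68907448, plus strand) encodes lipoprotein lipase, which frees fatty acids from circulating triglyceride. Its levels were 45.3, 67.3, 75.7, 51.6 and 42.9 TPM in wild-type and 27.9, 33.9, 49.4, 51.7 and 54.3 TPM in null mice. Only null replicates 1 and 2 were below every wild-type mouse. The log2 difference was -0.38 (SE 0.212, 95% interval -0.85 to 0.08), with a limma p of 0.0971, an adjusted p of 0.522 and an exact permutation p of 0.159.

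Cd36 (ENSMUSG00000002944, chromosome 5, 17781690 to 17888801, minus strand), a fatty acid and lipoprotein receptor at the cell surface, was the one gene with an estimate above 0. Wild-type mice had 30.2, 56.2, 68.8, 57.0 and 47.0 TPM, and null mice 55.3, 49.0, 50.1, 63.5 and 64.4 TPM. The null range lay within the wild-type range. The log2 difference of 0.16 (SE 0.188, 95% interval -0.25 to 0.57, limma adjusted p 0.820) was -0.016 without wild-type replicate 1, the lowest mouse.

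Gaps between genes within each mouse were compared for 4 pairs, picked after the values were seen and given with no test. The log2 level of Fabp4 exceeded that of Cd36 by 2.56, 1.75, 1.82, 1.86 and 1.65 in wild-type and by 0.88, 0.91, 1.62, 1.01 and 1.10 in null mice. The means were 1.93 ± 0.363 and 1.10 ± 0.300 (SD, n = 5), and the highest null mouse, replicate 3, was just below the lowest wild-type mouse. The difference between genotypes was -0.83, or -0.67 without wild-type replicate 1. Because both genes come from the same library, this gap does not depend on how the library totals are set, apart from the added 1 TPM. For the other pairs the genotypes overlapped, with differences of -0.83 for Cidec minus Adipoq (-0.63 without wild-type replicate 1), -0.51 for Cfd minus Adipoq and -0.41 for Plin1 minus Adipoq (-0.21 without that mouse).

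The transcription factors had estimates near 0. Pparg (ENSMUSG00000000440, chromosome 6, 115360951 to 115490399, plus strand), the nuclear receptor that drives fat cell differentiation, had 9.11, 18.9, 17.2, 15.5 and 13.7 TPM in wild-type mice. Null mice had 11.7, 15.8, 15.2, 14.5 and 15.0 TPM, all inside the wild-type range. Its log2 difference was -0.0088 (SE 0.171, 95% interval -0.38 to 0.37, limma adjusted p 0.992), and the lower end of the interval is at the estimates of Adipoq and Lpl. Without wild-type replicate 1 it was -0.16.

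Cebpa (ENSMUSG00000034957, chromosome 7, 35119293 to 35121928, plus strand), its partner factor, is also used by myeloid blood precursors. Wild-type mice had 41.0, 40.3, 42.2, 38.3 and 41.8 TPM and null mice 41.7, 46.0, 43.5, 35.7 and 33.8 TPM. The 2 lowest mice, null replicates 4 and 5, and the 2 highest, null replicates 2 and 3, were all null. The log2 difference was -0.028 (SE 0.0979, 95% interval -0.24 to 0.19, limma adjusted p 0.955). This interval leaves out the differences estimated for Adipoq, Lpl and the lower genes. The sign of both factors' estimates turned under other scalings, to 0.041 for Pparg and 0.025 for Cebpa with median ratio scaling.

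**Figure D2:**
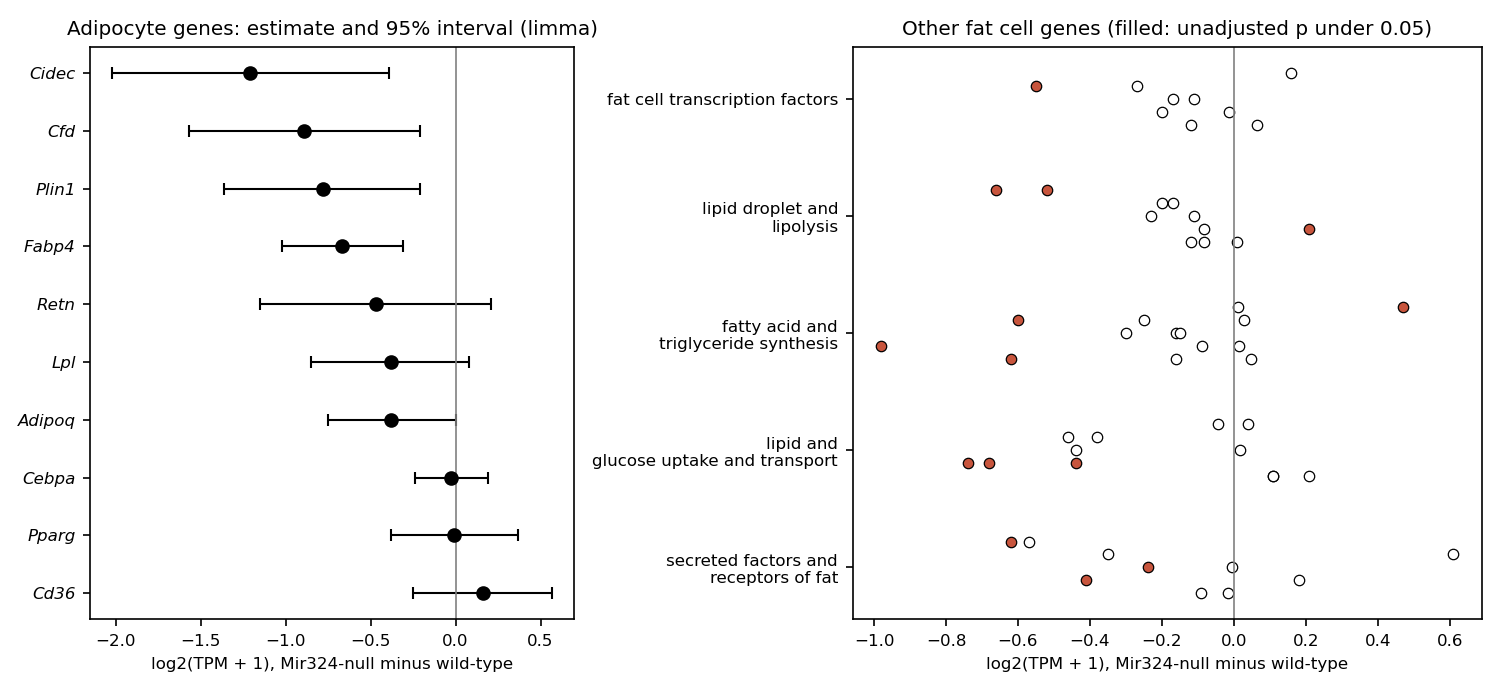
Left, the limma estimate and 95% interval of each of the 10 genes, Mir324-null minus wild-type on the log2(TPM + 1) scale, from Cidec at -1.21 to Cd36 at 0.16. Right, the estimates of 56 genes of the wider list by role, not all limited to fat cells, filled where the unadjusted p was under 0.05 (12 lower and 2 higher).

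The null mice did not share the difference evenly. Null replicates 1, 2, 4 and 5 lay below every wild-type mouse for 7, 6, 6 and 7 of the 10 genes, and null replicate 3 for 0 of them. The like counts over all genes tested are not given here. These counts thus describe the 10 genes and cannot set them apart from other genes of the same libraries. On the log2 scale replicate 3 stood at 0.21 above the wild-type mean for Cidec, 0.05 for Plin1, 0.19 for Cfd and 0.35 for Retn. Null replicate 4 had the lowest Cidec and Cfd of all mice, at -1.92 and -1.72, yet its Adipoq (-0.02) and Lpl (-0.09) were near the wild-type mean. Null replicate 1 was low for both groups, at -1.52 for Cidec, -0.83 for Adipoq and -0.96 for Lpl. Wild-type replicate 1 was the highest wild-type mouse for Plin1, Cidec and Retn and the lowest for Pparg and Cd36.

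**Figure D3:**
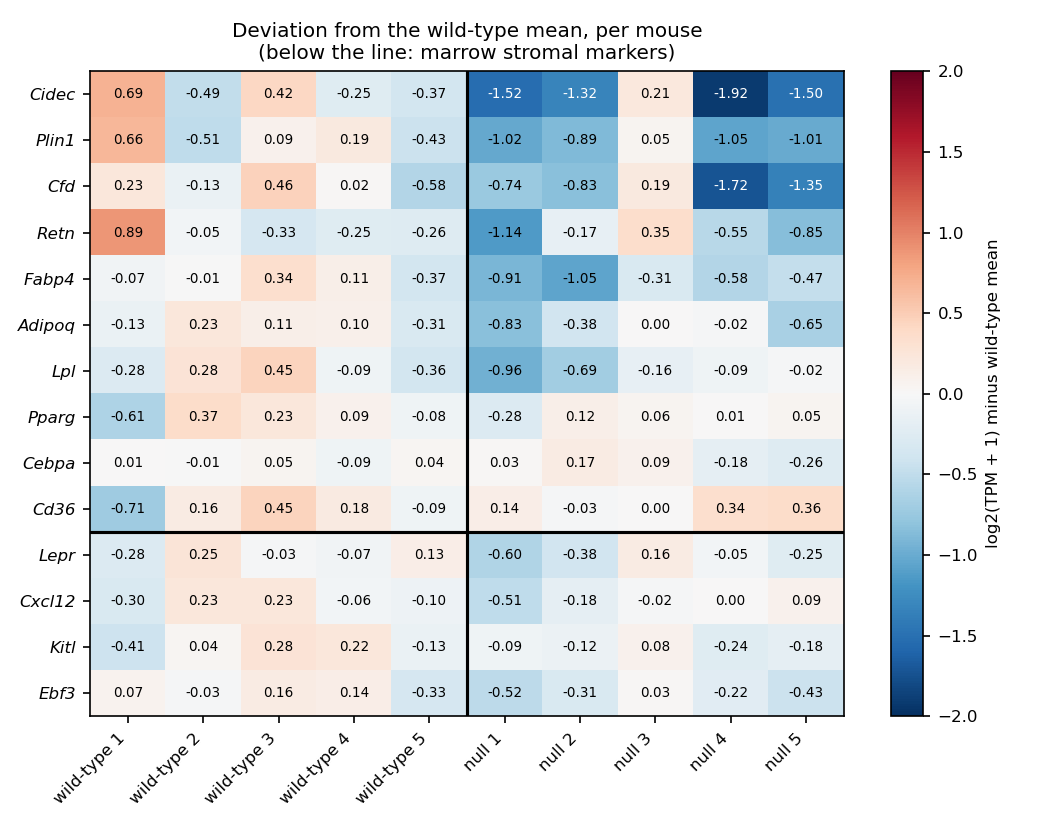
Each cell gives a gene's log2(TPM + 1) in a mouse minus the wild-type mean of that gene, blue below and red above, for the 10 genes and, under the line, 4 markers of marrow stromal cells. Cidec, Plin1 and Cfd are low in null replicates 1, 2, 4 and 5 and near or above the wild-type mean in null replicate 3, and Adipoq and Lpl are lowest in null replicate 1.

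Across the 10 mice Plin1, Cidec and Cfd moved most closely together. All 45 pairs of the 10 genes were compared with permutation tests of 100000 resamples, and 5 had an adjusted p under 0.05 for Pearson's r. Plin1 and Cidec had r = 0.95 (permutation p = 6e-05, adjusted 0.0018) and Spearman's rho = 0.964 (permutation p = 5e-05, adjusted 0.00225). Their r was 0.985 without the 2 mice farthest from the median of Plin1 and 0.906 for deviations from each genotype's own mean. The pair thus moved together within genotypes as well, though null replicate 3 stayed in both checks. In the like checks below, the 2 mice left out are those farthest from the median of the gene named first, and null replicate 3 stayed in. Cfd and Cidec had r = 0.932 (permutation p = 8e-05, adjusted 0.0018) and rho = 0.939 (permutation p = 0.00023, adjusted 0.00517), with r = 0.908 without the farthest 2 mice and 0.880 within genotypes. For Plin1 and Cfd r was 0.869 (permutation p = 0.00149, adjusted 0.0223) and rho 0.891 (permutation p = 0.00105, adjusted 0.0157), with 0.906 and 0.767 in the same checks.

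For the other 2 pairs Spearman's rho did not pass adjustment. Plin1 and Retn had r = 0.790 (permutation p = 0.00444, adjusted 0.0400) and rho = 0.673 (permutation p = 0.039, adjusted 0.160), and r was 0.699 without the farthest 2 mice and 0.748 within genotypes. Fabp4 and Lpl had r = 0.823 (permutation p = 0.00361, adjusted 0.0400) and rho = 0.648 (permutation p = 0.0488, adjusted 0.172), with 0.683 without the farthest 2 and 0.823 within genotypes. Adipoq went with Lpl (r = 0.742, permutation p = 0.0147, adjusted 0.0675, rho = 0.697, permutation p = 0.0307, adjusted 0.153, 0.889 without the farthest 2). Its r with Cidec was 0.555 (permutation p = 0.0984, adjusted 0.243, rho = 0.491, permutation p = 0.155, adjusted 0.369) and 0.255 without the farthest 2 mice. All these values come from the same libraries, so a shift of a whole library moves every gene in it.

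The sequences before the start sites of the 3 genes that moved together are shown for that reason, from RefSeq in GRCm38.p6, which held a window for 8 of the 10 genes. Fabp4 and Lpl are named only. Each window runs 5′ to 3′ on the gene's own strand from 250 bases before to 50 bases after the start, and capitals mark motif letters found on either strand. Those of Plin1 (chr7:79732727-79733026, minus strand), Cidec (chr6:113435711-113436010, minus strand, the start of its longest transcripts) and Cfd (chr10:79890603-79890902, plus strand) read:
Plin1: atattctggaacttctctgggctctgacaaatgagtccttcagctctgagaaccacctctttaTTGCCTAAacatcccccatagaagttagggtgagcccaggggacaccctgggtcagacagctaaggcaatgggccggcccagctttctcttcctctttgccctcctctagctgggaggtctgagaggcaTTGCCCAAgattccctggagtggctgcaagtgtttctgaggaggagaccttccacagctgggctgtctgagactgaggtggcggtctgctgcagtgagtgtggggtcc
Cidec: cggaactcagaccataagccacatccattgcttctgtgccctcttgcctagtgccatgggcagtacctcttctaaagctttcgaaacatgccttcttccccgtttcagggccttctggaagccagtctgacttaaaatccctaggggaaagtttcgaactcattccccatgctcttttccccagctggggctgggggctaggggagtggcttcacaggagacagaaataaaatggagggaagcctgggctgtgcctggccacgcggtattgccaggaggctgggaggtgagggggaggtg
Cfd: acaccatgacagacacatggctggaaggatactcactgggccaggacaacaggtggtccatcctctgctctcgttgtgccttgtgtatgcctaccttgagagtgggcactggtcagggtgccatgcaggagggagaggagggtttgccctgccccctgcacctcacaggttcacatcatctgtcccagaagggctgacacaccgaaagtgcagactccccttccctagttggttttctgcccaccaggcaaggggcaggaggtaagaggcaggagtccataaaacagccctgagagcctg
The motifs searched, on both strands, were TTGCNNAA, a core letter pattern of the C/EBP factors, AGGTCA, the half-site of nuclear receptors such as the product of Pparg, its direct repeat AGGTCANAGGTCA, and TATAAA. The Plin1 window held TTGCNNAA at 2 places, whose first bases lie 187 and 58 bases upstream of the start. The Cidec and Cfd windows shown held none of the 4 motifs, though the second Cidec window of the table held TTGCNNAA 198 bases upstream. TTGCNNAA occurs in 10.8% of 32817 mouse windows of this length, AGGTCA in 16.3%, TATAAA in 13.6% and the direct repeat in 0.0396%. Of the 11 windows of the 8 genes, 3 held TTGCNNAA, 3 AGGTCA, 2 TATAAA and 0 the direct repeat. A match is only a run of letters.

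Pparg is read from separate start sites. The upstream starts give messages for a protein of 475 residues, and the downstream start gives the 505-residue form (Pparg-201, from position 115422066), which is known as the form typical of fat cells. The upstream window (chr6:115362099-115362398) is set on the start of Pparg-206, at 115362349, and Pparg-204 begins inside it, at 115362292. It and the window at the downstream start (chr6:115421816-115422115), both on the plus strand, are shown because the data separate the upstream and downstream groups:
Pparg upstream: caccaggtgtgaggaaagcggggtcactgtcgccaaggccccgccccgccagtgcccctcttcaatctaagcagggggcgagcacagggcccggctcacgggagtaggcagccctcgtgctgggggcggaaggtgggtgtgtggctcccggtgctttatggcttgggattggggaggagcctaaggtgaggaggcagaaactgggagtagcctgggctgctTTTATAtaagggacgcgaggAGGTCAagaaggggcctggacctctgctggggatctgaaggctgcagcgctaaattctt
Pparg downstream: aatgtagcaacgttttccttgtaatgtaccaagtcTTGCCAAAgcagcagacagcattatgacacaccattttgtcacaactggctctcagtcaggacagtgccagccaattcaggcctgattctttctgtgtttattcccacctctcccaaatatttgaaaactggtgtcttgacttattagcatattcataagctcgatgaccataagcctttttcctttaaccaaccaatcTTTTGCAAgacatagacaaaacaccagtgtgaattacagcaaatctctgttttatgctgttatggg
The upstream window held TATAAA on the opposite strand 29 bases and AGGTCA 9 bases before the Pparg-206 start, so after that of Pparg-204. The downstream window held TTGCNNAA at 215 and 16 bases before its own start. These 2 windows had no motif in common.

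The Pparg transcripts differed among mice more than between genotypes. The fat cell form stood at 5.40, 2.08e-05, 1.74, 4.26 and 0.292 TPM in wild-type and at 7.10, 0.000222, 6.98, 3.77 and 0.00629 TPM in null mice. It was thus near 0 in wild-type replicate 2 and null replicates 2 and 5, and it made up 60.5% of Pparg in null replicate 1. Transcripts from the upstream starts averaged 12.5 ± 5.70 TPM for the wild-type and 10.8 ± 4.67 TPM for the null mice (SD, n = 5, exact permutation p = 0.730). The downstream form averaged 2.34 ± 2.40 and 3.57 ± 3.52 TPM (exact permutation p = 0.746). The split between transcripts that share most of their exons is an estimate by the program, and its error per library is not in the table.

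**Figure D4:**
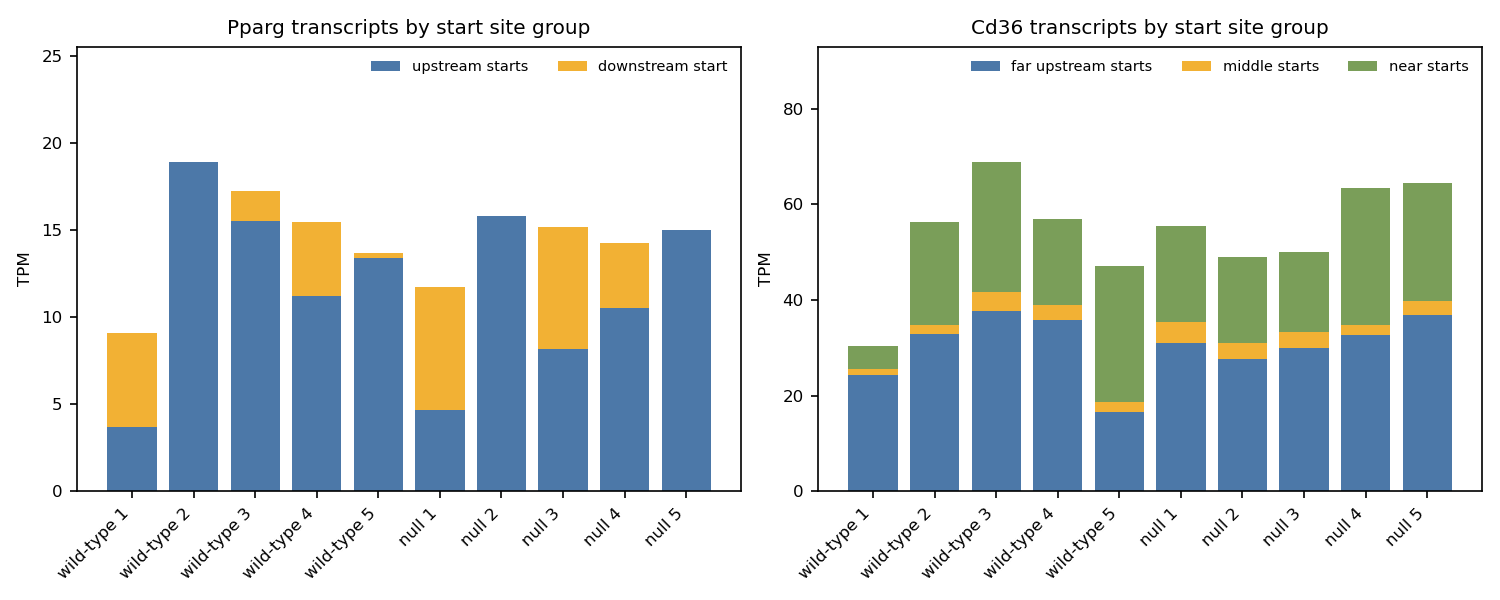
Stacked bars give the TPM of Pparg and Cd36 transcripts in each mouse by group of start sites. The downstream Pparg form varies from near 0 to 7.10 TPM within both genotypes, and the near Cd36 starts are low in wild-type replicate 1 at 4.71 TPM.

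Cd36 likewise has far upstream, middle and near starts, which averaged 29.4 ± 8.88, 2.53 ± 1.05 and 19.9 ± 9.47 TPM in wild-type mice. In null mice they averaged 31.6 ± 3.49, 3.26 ± 0.848 and 21.6 ± 4.99 TPM (SD, n = 5). The exact permutation p was 0.587, 0.222 and 0.770, so none of the start groups carried a difference beyond the spread. The low Cd36 of wild-type replicate 1 lay at the near starts, with 4.71 TPM against 18.1 to 28.3 TPM in the other wild-type mice. Of 39 transcripts of the 10 genes, 21 averaged at least 1 TPM and 0 passed adjustment in limma, as for all 31817 transcripts tested (0.0%). An unadjusted p under 0.05 was found for 5 (Fabp4-201, Cfd-201, Cidec-202, Cidec-204 and Plin1-206), beside 7.51% of all transcripts. Single transcripts carried most of Fabp4, Lpl, Adipoq and Cfd, so those gene values rest little on the split. Cidec, in contrast, was divided among its transcripts. The log2 difference was -0.16 for Cidec-201 (1703 bases, limma p 0.772 unadjusted), -1.54 for Cidec-202 (1720 bases) and -1.2 for Cidec-204 (376 bases). Cidec-202 ranged from 3.67e-06 to 7.95 TPM among wild-type mice, and its highest null value was 3.1e-05 TPM. How far the lower Cidec of null mice rests on the split was not tested.

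A wider list of 66 genes of fat cell differentiation and of lipid storage, synthesis, uptake and secretion had 56 tested. Of these, 40 estimates were below 0 and 16 above, with a median of -0.14. The list is not limited to genes of fat cells, and which cells carried its differences was not tested. Over all genes 60.0% of estimates were below 0, with a median of -0.045, and that direction turns with scaling, as given below. At an unadjusted p under 0.05, 12 of the 56 were lower and 2 higher, beside 7.3% of all genes lower and 11.6% in either direction. In limma 0 passed adjustment. The list too was chosen with earlier results of these data known, and it was not tested against all genes. The 10 not tested averaged under 1 TPM and include Lep, the hormone leptin, Adrb3, the adrenergic receptor of white fat, Plin5, Cidea and Ppargc1a. Leaving out single mice moved the count of 14, to 7 without wild-type replicate 4 at the lowest and 18 without null replicate 3 at the highest. It was 9 without wild-type replicate 1, null replicate 1, null replicate 4 or null replicate 5. The count over all genes, 1603, moved the same way, to 1210 without wild-type replicate 4 and 1927 without null replicate 3. Without the other mice just named it was 1147, 1106, 1159 and 1229, in that order.

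Uptake and transport genes held the lowest p of the wider list, with 3 of 12 lower and 0 higher before adjustment. Vldlr, a receptor for triglyceride-rich lipoproteins, averaged 7.48 ± 2.10 TPM in the wild-type group and 4.01 ± 0.846 TPM in the null group (SD, n = 5). Its log2 difference was -0.74 (SE 0.186), with limma p 0.00201 unadjusted and 0.283 adjusted. Angptl4, a secreted inhibitor of lipoprotein lipase, averaged 17.5 ± 3.87 and 10.6 ± 2.61 TPM (log2 difference -0.68, SE 0.187, limma adjusted p 0.291). Gpihbp1, which carries lipoprotein lipase to the capillary wall, was the third, at 17.8 ± 3.26 and 12.9 ± 2.67 TPM (limma p 0.0140 unadjusted, 0.338 adjusted). Estimates were below 0 for 7 of the 12 genes and above 0 for 5, beside 60.0% below 0 over all genes. Lmf1 averaged 8.12 ± 2.18 and 8.24 ± 2.19 TPM. Slc2a4, the insulin-responsive glucose carrier, had 7.40 ± 1.57 and 8.68 ± 1.33 TPM.

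In fatty acid and triglyceride synthesis, 3 of 14 genes were lower before adjustment (Scd1, Thrsp and Me1) and 1 higher (Lpin1). Scd1, the desaturase that makes monounsaturated fatty acids, averaged 68.8 ± 31.5 and 33.5 ± 13.5 TPM (SD, n = 5, log2 difference -0.98, limma p 0.00859 unadjusted and 0.319 adjusted). Lpin1, a phosphatidate phosphatase, had no overlap between the genotypes, as for 1.94% of all genes tested, at 1.96 ± 0.204 and 3.14 ± 0.798 TPM. Its log2 difference was 0.47 (SE 0.151, limma p 0.00990 unadjusted and 0.325 adjusted), and the exact permutation p of 0.00794 is the smallest this design can give. Core enzymes of fatty acid synthesis had 23.5 ± 12.3 and 20.9 ± 5.24 TPM for Fasn and 49.7 ± 6.57 and 51.0 ± 11.7 TPM for Acly (SD, n = 5).

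Among 11 tested genes of droplets and lipolysis, Plin4 and Hilpda were lower and Mgll higher before adjustment. Hilpda, an inhibitor of triglyceride lipase, averaged 9.73 ± 0.572 and 6.68 ± 1.90 TPM (SD, n = 5, log2 difference -0.52, limma adjusted p 0.319). Mgll, which splits monoglycerides, averaged 35.0 ± 3.10 and 40.6 ± 3.27 TPM (log2 difference 0.21, limma adjusted p 0.425). Plin2, the droplet coat found in most cell types, was at 69.3 ± 6.63 and 64.2 ± 8.05 TPM, and the lipases Pnpla2 and Lipe gave log2 differences of -0.084 and -0.12. Plin1 and Cidec are found mainly in fat cells, and Plin2 and the lipases in many.

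For transcription factors 1 of 9 (Klf15) was lower before adjustment, at 3.17 ± 1.17 and 1.82 ± 0.649 TPM, and the list's median was -0.12. Among secreted factors and receptors 3 of 10 were lower (Rbp4, Nampt and Irs1) and 0 higher. Adipor1, a receptor for adiponectin, had 127 ± 17.8 and 143 ± 4.65 TPM (SD, n = 5, log2 difference 0.18, limma adjusted p 0.527).

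Genes with a pattern over the 10 mice like that of Adipoq were looked for outside the list. Among 10333 genes averaging at least 5 TPM, those with the highest Pearson r included Hpgd (0.903), Bdh1 (0.884), Igfbp4 (0.884), Arhgap5 (0.882), Coa7 (0.879), Ebf3 (0.877), Serf1 (0.875), Cthrc1 (0.870) and Agt (0.864). They are given as a description, since they were picked as the highest of so many. Ebf3 marks the marrow stromal cells that support blood formation, and Igfbp4 is a secreted binder of insulin-like growth factors. Igfbp4 averaged 347 ± 40.5 and 284 ± 38.4 TPM, and Ebf3 7.28 ± 1.07 and 5.78 ± 1.02 TPM (SD, n = 5).

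Markers of other cell types also differed in level between the genotypes, none past adjustment in limma, and their part in the differences above was not tested. Osteoblast and osteocyte markers summed to 4903 to 10626 TPM in wild-type mice and 2553 to 5482 TPM in null mice, with 10 of 10 estimates lower and 9 at an unadjusted p under 0.05. Without wild-type replicate 1 the wild-type range was 4903 to 10212 TPM. Erythroid markers summed to 112354 to 198166 and 158566 to 262867 TPM, with 6 of 6 estimates higher, and megakaryocyte markers to 1110 to 1687 and 1293 to 2683 TPM, with 5 of 5 higher. Every library is set to one total, so the values in it depend on each other, and the part of the erythroid share was not tested. With haemoglobin genes taken out of the total, the estimates were -1.17 for Cidec, -0.80 for Cfd, -0.72 for Plin1 and -0.58 for Fabp4. They were -0.46 for Retn, -0.30 for Lpl, -0.29 for Adipoq (limma p 0.150), 0.060 for Cebpa, 0.076 for Pparg and 0.25 for Cd36. In that setting 4 of the 10 genes kept an unadjusted p under 0.05, beside 1819 of all 14218 genes tested, 591 of them lower. Under that scaling the share of genes with such a p that were lower was 32.5%, against 63.1% with the deposited totals.

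Stromal cells, macrophages and endothelial cells express some of the 10 genes themselves. The 4 marrow stromal markers (Lepr, Cxcl12, Kitl and Ebf3) summed to 653 to 940 TPM in wild-type mice and 565 to 842 TPM in null mice, with 4 of 4 estimates lower, a median of -0.18 and 0 at an unadjusted p under 0.05. Macrophage markers summed to 771 to 1129 and 760 to 941 TPM, with 2 of 8 estimates lower and a median of 0.05. Endothelial markers summed to 111 to 164 and 97.5 to 135 TPM, with 6 of 7 estimates lower and 2 (Cdh5 and Emcn) at an unadjusted p under 0.05. Fibroblast markers summed to 61.7 to 95.6 and 63.1 to 132 TPM, and neutrophil precursor markers to 1700 to 3479 and 1515 to 3485 TPM. Chondrocyte markers summed to 1850 to 6011 TPM in wild-type mice (to 4296 TPM without wild-type replicate 1) and 1592 to 2835 TPM in null mice. Most of that sum was Prg4, at 2900 ± 1490 and 1740 ± 411 TPM (SD, n = 5). Of the 5 chondrocyte markers tested, 4 had lower estimates, 3 at an unadjusted p under 0.05, with a median of -0.65. Muscle markers were at 0.648 to 2.43 TPM except in null replicates 2 and 3, at 23.8 and 8.76 TPM. Brown fat markers summed to 0.737 to 5.33 TPM over all mice, nearly all of it Cox7a1.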

How the data were processed

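RNA was sequenced from 10 mice, 5 per genotype, with 1 library each. The authors deposited 1 table of TPM per transcript, and the submitters' processing notes name kallisto, DESeq2 and GRCh38. GRCh38 is a human build, whereas the identifiers are those of mouse transcripts, and the index used is not given in the sources used here. Each column sums to 1000000 TPM. TPM keeps no read counts, so depth is unknown and no count model or interval from counts was used.

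Transcripts were matched without version to GENCODE M21 (GRCm38). Of 116912, 115440 matched and were summed to 35705 genes, and the other 1472 (0.275% to 0.356% of a library) were left out. Genes averaging at least 1 TPM (13841) were tested on log2(TPM + 1), which understates changes of low genes, with limma 3.58.1 in R 4.3.3 (lmFit, eBayes with trend, two-sided, Benjamini-Hochberg over all genes). Single values were tested with exact permutation tests over all splits of 10 mice into 5 and 5, whose smallest p is 0.00794. On simulated data of 13841 genes, the limma step recovered 85 of 100 genes changed by 1 on the log2 scale, with 6 false calls. It recovered 97 of 100 changed by 2, also with 6 false calls. How often changes of these sizes would be found in the 10 libraries was not tested. In them Cidec, with a log2 difference of -1.21, had an adjusted limma p of 0.319.

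The 10 genes and all lists were chosen with earlier results of these data known. Named besides the 10 were the 3 genes of the wider list with the smallest p in each direction (Vldlr, Angptl4 and Hilpda, and Lpin1, Mgll and Adipor1) and the 10 genes most like Adipoq, 1 of which is not reported here. Other genes are named to show their list. Alternatives were 3 other scalings, another pseudocount (0.1), a filter at 5 TPM or none, no trend, quality weights, a replicate block and leaving out each mouse.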

Additional observations from a re-analysis of the deposited data

Results flagged for a closer look

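In 26 genes, each checked in both genotypes (52 groups of 5 mice), 4 groups held a mouse far from the other 4, and chance alone gives about 1 in 20 groups. In null replicate 3 Plin1 stood at 10.3 TPM while the other null mice had 4.27 to 4.90 TPM. Cidec stood at 12.8 TPM in the same mouse, with 2.14 to 3.76 TPM in the others. Vldlr, the lipoprotein receptor, was at 5.46 TPM there and at 3.34 to 3.90 TPM in the others. Retn was at 4.34 TPM in wild-type replicate 1, with 1.29 to 1.77 TPM in the other wild-type mice. Null replicate 3 accounts for 3 of these 4 values.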

How the results depend on the processing

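No gene on the list of 10 passed adjustment in any of 19 other limma settings, and 4 to 6 of them had an unadjusted p under 0.05. Over all genes tested, a number that varied with the filter, 1106 to 2062 had such a p in those settings. Plin1, Fabp4 and Cidec kept such a p in all 20 settings run for them, the exact test included. The smallest and largest adjusted p were 0.163 and 0.558 for Fabp4, 0.163 and 0.580 for Cidec, 0.163 and 0.592 for Plin1, 0.163 and 0.583 for Cfd, and 0.260 and 0.718 for Adipoq. Over all genes, leaving out single mice gave 0 to 1 adjusted calls, with 1 without wild-type replicate 3, wild-type replicate 4 or null replicate 1, and 1147 unadjusted calls without wild-type replicate 1. In the wider list single mice moved the count of 14 to between 7 and 18, and over all genes that of 1603 to between 1106 and 1927. The estimate for Adipoq was -0.32 (p 0.108) with median ratio scaling. The sign of Pparg turned with median ratio scaling (0.041), quantile normalization (0.046) and without haemoglobin genes (0.076), and leaving out single mice gave -0.16 to 0.082. Cebpa turned to 0.025 with median ratio scaling and 0.060 without haemoglobin genes, with -0.078 to 0.030 when single mice were left out. Cd36 ranged from -0.016 (without wild-type replicate 1) to 0.27. With a pseudocount of 0.1 Retn was at -0.86, and it was not tested with a filter at 5 TPM. The lower share of unadjusted calls was 63.1% as deposited, 50.4% with median ratio scaling, 51.2% after quantile normalization and 32.5% without haemoglobin genes, with medians over all genes of -0.045, 0.0032, 0.0038 and 0.035. The cause was not tested.

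Mice with the same replicate number did not deviate together (correlations of -0.107, -0.0066, -0.144, 0.0564 and 0.0207), no library correlated best with its own number, and the labels tie the numbers to nothing shared. With a replicate block, 0 genes passed adjustment, 1168 genes, 5 of the 10 and 11 of the wider list had an unadjusted p under 0.05. Depth is unknown, so how far reads limit Retn and the transcripts near 0 was not assessed.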

Other observations

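Genes whose levels over the 10 mice were most like those of Cidec were listed after its values were seen, among 10333 genes averaging at least 5 TPM, and are given as a description with no test. The 10 with the highest Pearson r were Armc10 (0.972), Pax5 (0.954), Pex7 (0.946), Scd1 (0.944), Gstt2 (0.941), Mmrn2 (0.938), Blk (0.936), Thrsp (0.934), Ncmap (0.920) and Tiparp (0.916). Scd1 and Thrsp are lipid synthesis genes of fat cells, whereas Pax5, the factor that sets B cell identity, and Blk, a kinase of B cells, belong to blood cells of the marrow. Pax5 stood at 29.8, 20.3, 26.7, 17.8 and 21.3 TPM in wild-type and 14.9, 17.4, 26.3, 10.8 and 12.6 TPM in null mice. Null replicate 3, the null mouse with the highest Cidec, also had the highest Pax5 of its group. Blk averaged 14.4 ± 2.85 and 10.2 ± 2.59 TPM (SD, n = 5, limma p 0.0198 unadjusted and 0.351 adjusted).

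Scd1 had 115, 45.4, 86.0, 58.4 and 39.1 TPM in wild-type and 32.3, 34.2, 55.7, 22.5 and 22.7 TPM in null mice. As for Cidec, wild-type replicate 1 was the highest of all mice and null replicate 3 the highest null mouse.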
